A study of Mus musculus with 35 samples.

Results

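Genes of activated phagocytes were examined in mouse brain hemispheres after focal ischemia. The set comprised Lgals3, Spp1, Gpnmb, Cd68, Trem2, Tyrobp, Msr1, Clec7a, Lyz2 and Aif1, and every probe set annotated to 1 of these genes was taken. Of the 10 genes, 9 had a named probe set, giving 14 of the 45037 probe sets on the array that are not controls, and 9 of 18193 genes. Spp1, which encodes the secreted matrix protein osteopontin, had no named probe set in the annotation used and was not analysed here. Gpnmb and Trem2 had 2 probe sets each, Msr1 had 4 and the other genes had 1.

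The arrays covered 6 groups of male mice on the FVB background. Mice deficient in the beta2 adrenergic receptor, called beta2 knockout below, had middle cerebral artery occlusion (MCAO, a stroke model; 7 arrays), sham surgery (3 arrays) or no surgery (naive, 7 arrays). Wild type mice had the same treatments, with 7 MCAO, 3 sham and 8 naive arrays. RNA came from the ischemic hemisphere, or from the hemisphere on the same side in sham mice, 24 h after surgery. Each array therefore averaged all cell types of a hemisphere, and MCAO arrays averaged infarcted and surviving tissue. The sources used here give neither how the receptor gene was inactivated nor the age of the mice, and do not say whether the arrays of a group are separate animals, so p-values measure the spread between arrays.

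Microglia are the resident phagocytes of the brain, and after ischemia they are joined by macrophages derived from blood monocytes. Both engulf dead cells through surface receptors, pass the cargo to lysosomes and induce a shared set of genes as they activate. Many of their receptors signal through adaptors with an immunoreceptor tyrosine-based activation motif (ITAM), of which Tyrobp is one. Both cell types can express the genes of this set, so their level in a whole hemisphere does not tell microglia from macrophages. More cells of a type cannot be told apart from more RNA per cell.

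The surgery arrays resembled each other closely, with correlations between arrays over all probe sets of 0.958 to 0.998. The ratio of the 3 prime to the 5 prime actin control probe sets, a sign of RNA integrity, did not overlap between the sham groups, at 1.60 to 1.76 on the log2 scale in beta2 knockout sham arrays and 0.86 to 1.01 in wild type sham arrays. After MCAO it ranged from 0.43 to 1.75 in beta2 knockout arrays and from 0.39 to 1.70 in wild type arrays. Neuronal markers, 10 genes, were bright on every surgery array, with a mean log2 signal of 11.7 to 12.3. The naive arrays were normalized by the authors apart from the surgery arrays and are described last.

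Promoter sequence was read for the members from RefSeq (GRCm38.p6), as the 250 bases before a listed start on the gene's strand. Of the 9 genes, 7 had an entry. In these promoters 3 short motifs were searched on both strands. GAGGAA is the core of the PU box bound by the myeloid factor PU.1, and CACGTG is the E-box of many lysosomal genes. TGANTCA is the AP-1 site with any base allowed in the middle. The motifs do not overlap one another in the sequences shown. Of the 7 genes, 4 held GAGGAA (Aif1, Cd68, Clec7a and Trem2; 5 of 8 promoters, since Clec7a has 2 listed starts), against 23.3% of all 32851 promoters in the table. Cd68 and Trem2 held TGANTCA, against 6.75% of all promoters, and none held CACGTG, against 6.02%. A match describes the letters and is no evidence of binding. Below, Lgals3 and Cd68 are shown because both rose after MCAO in both genotypes, and Trem2 and Aif1 because neither was called after MCAO in either genotype. Capitals mark GAGGAA or TGANTCA in either orientation.
Lgals3 promoter (chr14:47373610-47373859, plus strand): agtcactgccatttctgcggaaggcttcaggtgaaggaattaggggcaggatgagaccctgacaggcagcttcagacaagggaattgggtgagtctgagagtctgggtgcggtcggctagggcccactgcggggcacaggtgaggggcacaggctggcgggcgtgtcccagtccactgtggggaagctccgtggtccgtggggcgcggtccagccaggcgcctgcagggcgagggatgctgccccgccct
Cd68 promoter (chr11:69666171-69666420, minus strand): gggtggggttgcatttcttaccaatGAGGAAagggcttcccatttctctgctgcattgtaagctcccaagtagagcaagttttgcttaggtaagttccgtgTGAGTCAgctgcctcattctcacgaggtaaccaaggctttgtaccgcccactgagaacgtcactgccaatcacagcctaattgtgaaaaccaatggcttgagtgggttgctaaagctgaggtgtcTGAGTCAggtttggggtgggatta
Trem2 promoter (chr17:48346151-48346400, plus strand): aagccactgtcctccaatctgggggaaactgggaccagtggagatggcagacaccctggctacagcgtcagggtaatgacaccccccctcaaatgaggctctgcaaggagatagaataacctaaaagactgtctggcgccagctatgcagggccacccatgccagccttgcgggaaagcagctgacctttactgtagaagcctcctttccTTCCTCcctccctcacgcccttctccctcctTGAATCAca
Aif1 promoter (chr17:35176053-35176302, minus strand): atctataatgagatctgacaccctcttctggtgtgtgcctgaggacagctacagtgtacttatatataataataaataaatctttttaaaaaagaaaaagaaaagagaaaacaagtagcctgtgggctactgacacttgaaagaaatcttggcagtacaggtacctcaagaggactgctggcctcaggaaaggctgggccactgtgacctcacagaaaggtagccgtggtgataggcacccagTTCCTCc
In the Cd68 promoter GAGGAA began 225 bases before the start, and AP-1 sites began 149 and 24 bases before it. In the Trem2 promoter GAGGAA lay on the opposite strand 40 bases before the start, with TGAATCA, a match to TGANTCA, 9 bases before it. In the Aif1 promoter GAGGAA lay on the opposite strand 7 bases before the listed start. The annotated gene reaches chr17:35176083, beyond that start, so this match falls within the annotated gene. The Lgals3 window held none of the motifs. GAGGAA was present both in Cd68, which rose, and in Trem2 and Aif1, which were not called. The Gpnmb promoter, not shown, held none of the motifs, and Gpnmb was not called in either genotype.

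The first comparison asked how these genes responded to ischemia in each genotype. In both genotypes the lectin gene Lgals3, the lysosomal gene Cd68, the scavenger receptor gene Msr1 and the adaptor gene Tyrobp rose after MCAO. Lgals3 changed most among the main probe sets, by 9.44-fold in beta2 knockout and 13.5-fold in wild type hemispheres. The receptor gene Trem2 and the cytoskeletal gene Aif1 were not called in either genotype. In beta2 knockout mice 7 of 14 probe sets were called higher in MCAO than in sham arrays (adjusted p under 0.05) and 0 lower, where 10.8% of all probe sets were called higher and 7.94% lower. In wild type mice 7 of 14 were called higher and 0 lower, where 5.11% of all probe sets were called higher and 5.59% lower. Counted by the main probe set of each gene, the brightest over the surgery arrays, 5 of 9 genes rose in each genotype, against 14.9% of all genes in beta2 knockout and 7.41% in wild type mice. Called lower were 0 of 9, against 7.59% of all genes in beta2 knockout and 6.26% in wild type mice. The median log2 difference of the 14 probe sets was 0.70 in beta2 knockout and 0.91 in wild type mice, beside -0.06 and 0.03 for all probe sets in the same order. The members were chosen with earlier results of these arrays known, so these shares describe the set.

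**Figure D1:**
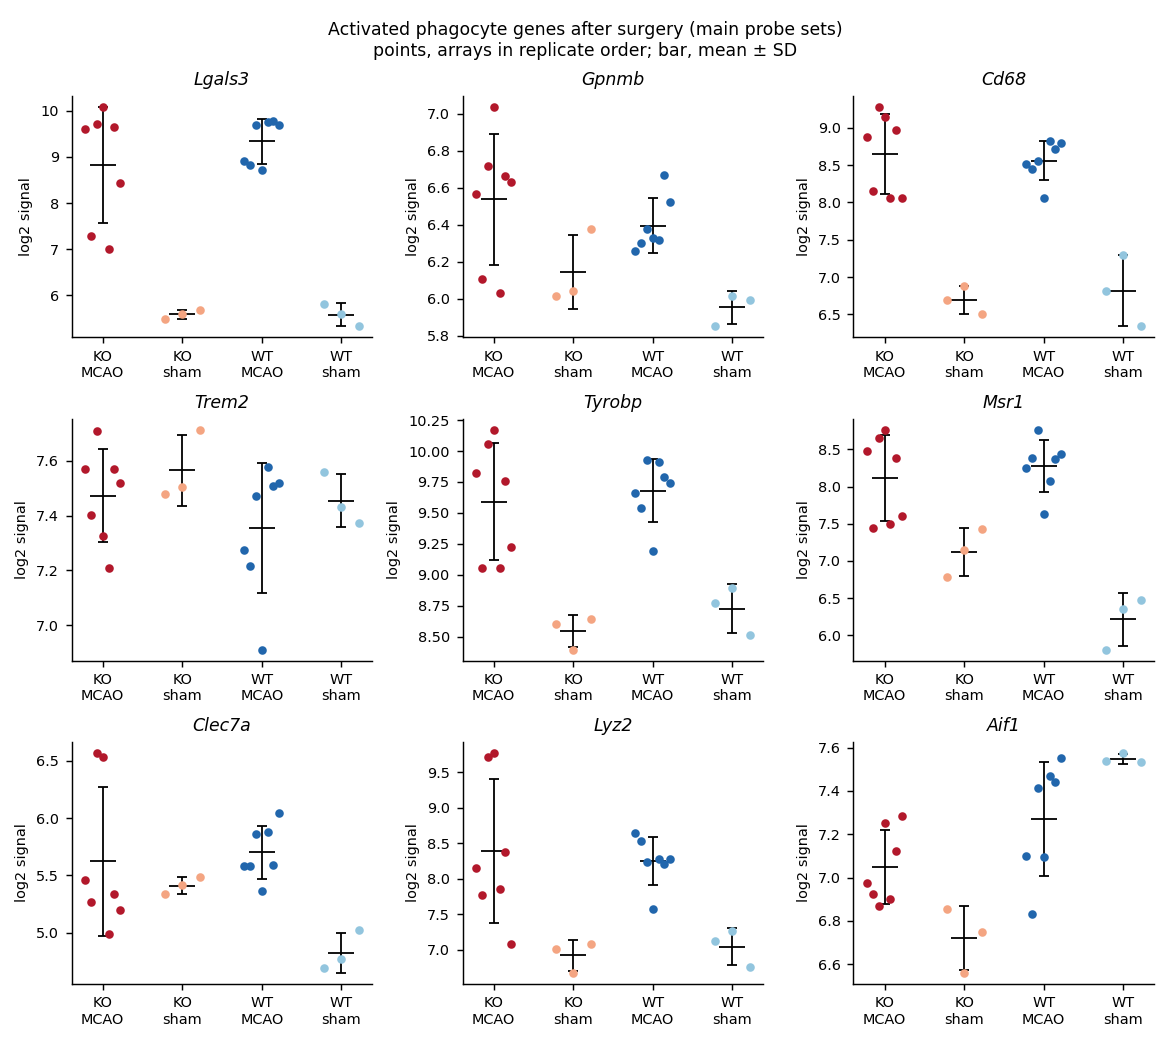
Log2 signal of the main probe set of each of 9 activated phagocyte genes (vertical axis) on the 20 surgery arrays, by group (horizontal axis; KO, beta2 knockout; WT, wild type). Points are arrays and bars show the mean ± SD (n = 7, 3, 7 and 3). Lgals3, Cd68, Tyrobp and Msr1 lay higher on every MCAO array than on any sham array of the same genotype, while Trem2 overlapped between all groups and Aif1 had its lowest mean on KO sham arrays.

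Lgals3 encodes galectin-3, a sugar-binding protein that phagocytes secrete and also use inside the cell. Its log2 signal on beta2 knockout MCAO arrays had a lowest value of 7.00, a median of 9.60 and a highest value of 10.09, against 5.49, 5.59 and 5.68 on the beta2 knockout sham arrays. Wild type MCAO arrays ran from 8.71 through a median of 9.68 to 9.77, against 5.82, 5.61 and 5.33 on the wild type sham arrays. Every MCAO array was above every sham array, and the beta2 knockout MCAO arrays were the more spread, with an SD of 1.26 where wild type MCAO arrays had 0.49. The log2 difference was 3.24 in beta2 knockout (SE 0.51, adjusted p = 0.000215) and 3.75 in wild type mice (SE 0.51, adjusted p = 9.2e-05). In beta2 knockout mice 99.9% of all probe sets changed by less than Lgals3 in either direction.

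Cd68 encodes a membrane protein of the lysosomes and endosomes of phagocytes. On beta2 knockout MCAO arrays its log2 signal had a lowest value of 8.06, a median of 8.87 and a highest value of 9.28, against 6.70, 6.88 and 6.51 on the beta2 knockout sham arrays. The wild type MCAO arrays had a lowest value of 8.06, a median of 8.55 and a highest value of 8.82, against 6.81, 7.30 and 6.34 on the wild type sham arrays. The groups did not overlap in either genotype. Cd68 rose by 1.95 on the log2 scale in beta2 knockout (SE 0.26, adjusted p = 3.74e-05) and 1.74 in wild type mice (SE 0.26, adjusted p = 0.000203).

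Msr1 encodes the class A scavenger receptor, which takes up modified lipoproteins and debris. Its 4 probe sets did not give 1 size of change. The main one, 1422062_at, had a log2 signal between 7.45 and 8.75 on beta2 knockout MCAO arrays (median 8.39), against 6.78, 7.15 and 7.43 on the beta2 knockout sham arrays. Wild type MCAO arrays ranged from 7.64 to 8.76 (median 8.37), against 5.81, 6.36 and 6.48 on the wild type sham arrays. The lowest beta2 knockout MCAO array, at 7.45, was thus just above the highest sham array of that genotype, whereas in wild type mice the gap was wider. This probe set rose by 0.999 on the log2 scale in beta2 knockout (SE 0.28, adjusted p = 0.0172) and 2.06 in wild type mice (SE 0.28, adjusted p = 8.9e-05). Probe set 1448061_at changed by 2.93 in beta2 knockout (SE 0.36, adjusted p = 1.78e-05) and by 3.25 in wild type mice (SE 0.36, adjusted p = 1.16e-05). Probe set 1425434_a_at changed by 1.29 (SE 0.23, adjusted p = 0.00068) in beta2 knockout and 1.79 (SE 0.23, adjusted p = 5.01e-05) in wild type mice. These 3 probe sets rose in both genotypes with no overlap between MCAO and sham arrays, and the dim probe set 1425435_at was not called, at 0.39 in beta2 knockout and 0.37 in wild type mice. With array weights it was called in both, at 0.38 in beta2 knockout (adjusted p = 0.0332, over all alternatives 0.0332 to 0.345) and 0.41 in wild type mice (adjusted p = 0.0285, over all alternatives 0.0285 to 0.451). The call of 1422062_at in beta2 knockout mice was lost with the actin ratio as a covariate (0.86, adjusted p = 0.1), without sham array 1 (0.83, adjusted p = 0.0897) and without sham array 2 (1.01, adjusted p = 0.062), and over all alternatives its adjusted p was 0.000233 to 0.1.

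Tyrobp encodes the ITAM adaptor through which TREM2 and other receptors signal. Its log2 signal on beta2 knockout MCAO arrays had a lowest value of 9.05, a median of 9.75 and a highest value of 10.17, against 8.60, 8.39 and 8.64 on the beta2 knockout sham arrays. Wild type MCAO arrays had a lowest value of 9.19, a median of 9.74 and a highest value of 9.93, against 8.77, 8.90 and 8.51 on the wild type sham arrays. It was higher on every MCAO array than on any sham array. Tyrobp rose by 1.05 on the log2 scale in beta2 knockout (SE 0.22, adjusted p = 0.00219) and by 0.96 in wild type mice (SE 0.22, adjusted p = 0.00682). Without wild type sham array 3 the wild type difference was 0.85 and not called (adjusted p = 0.0543, over all alternatives 0.00027 to 0.0543).

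Trem2 encodes a lipid-sensing receptor that pairs with TYROBP. Neither of its probe sets was called. The main probe set, 1421792_s_at, had a log2 signal from 7.21 to 7.71 on beta2 knockout MCAO arrays (median 7.52), against 7.48, 7.51 and 7.71 on the beta2 knockout sham arrays. Wild type MCAO arrays ranged from 6.91 to 7.58 (median 7.47), against 7.56, 7.43 and 7.37 on the wild type sham arrays. The groups overlapped throughout. The log2 difference was -0.09 in beta2 knockout (95% interval -0.36 to 0.18) and -0.10 in wild type mice (95% interval -0.37 to 0.17). The second probe set, 1421226_at, stood at -0.26 in beta2 knockout (adjusted p = 0.101) and 0.18 in wild type mice (adjusted p = 0.327).

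Lyz2 encodes the lysozyme of macrophages and granulocytes. Its log2 signal on beta2 knockout MCAO arrays had a lowest value of 7.07, a median of 8.15 and a highest value of 9.77, against 7.01, 6.67 and 7.08 on the beta2 knockout sham arrays. The wild type MCAO arrays had a lowest value of 7.58, a median of 8.27 and a highest value of 8.65, against 7.12, 7.26 and 6.75 on the wild type sham arrays. In beta2 knockout mice 1 MCAO array lay within the sham range, whereas in wild type mice the groups did not overlap. Lyz2 rose by 1.47 on the log2 scale in beta2 knockout mice (SE 0.41, adjusted p = 0.0171) and stood at 1.21, not called, in wild type mice (SE 0.41, adjusted p = 0.0629). The beta2 knockout call was lost with the actin ratio as a covariate (1.14, adjusted p = 0.125), without sham array 2 (adjusted p = 0.088), without sham array 3 (adjusted p = 0.0552) and with only the arrays compared in the fit (adjusted p = 0.068), within a range of 0.000944 to 0.125 over all alternatives. In wild type mice the difference passed the threshold with only the arrays compared in the fit (adjusted p = 0.00128) and with array weights (adjusted p = 0.00279). It also passed with 1 probe set per gene, the mean of a gene's probe sets, no dim probe sets or repeated quantile normalization (adjusted p = 0.0459 to 0.0494). The same held without wild type MCAO array 4 (adjusted p = 0.0475) and without beta2 knockout MCAO array 3, 4 or 7 (adjusted p = 0.0264 to 0.0344). Over all alternatives its adjusted p was 0.00128 to 0.21. Lyz1 is a near-identical copy that can share probes with Lyz2. Its probe set 1436996_x_at rose by 2.11 in beta2 knockout (adjusted p = 0.00207) and by 1.45 in wild type mice (adjusted p = 0.0348), so the signals of the 2 genes are uncertain. Lyz1 probe set 1439426_x_at stood at 2.01 in beta2 knockout (adjusted p = 0.00357) and 1.19 in wild type mice (adjusted p = 0.0877), and 1450822_at at 0.02 (adjusted p = 0.87) and -0.08 (adjusted p = 0.611), in the same order.

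Clec7a encodes dectin-1, a receptor for fungal glucans that microglia induce as they activate. Its log2 signal on beta2 knockout MCAO arrays had a lowest value of 4.99, a median of 5.34 and a highest value of 6.57, against 5.34, 5.42 and 5.49 on the beta2 knockout sham arrays. Of those MCAO arrays, 3 and 4 stood at 6.57 and 6.53 and the other 5 did not exceed 5.46. Wild type MCAO arrays had a lowest value of 5.36, a median of 5.59 and a highest value of 6.04, against 4.69, 4.77 and 5.02 on the wild type sham arrays, with no overlap. Clec7a stood at 0.21 on the log2 scale, not called, in beta2 knockout mice (SE 0.27, adjusted p = 0.599) and rose by 0.87 in wild type mice (SE 0.27, adjusted p = 0.0399). The wild type call was lost with median centring (0.83, adjusted p = 0.053), repeated quantile normalization (0.78, adjusted p = 0.0737) and the replicate block (0.93, adjusted p = 0.0652). It was also lost without any 1 of the 3 wild type sham arrays (adjusted p = 0.0762 to 0.156). The same held without wild type MCAO array 3, 5, 6 or 7 (adjusted p = 0.0537 to 0.0701) and without beta2 knockout sham array 2 (adjusted p = 0.0501). Over all alternatives its adjusted p was 0.0016 to 0.156.

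Gpnmb encodes a membrane glycoprotein of phagocytes loaded with lipid. The main probe set, 1448303_at, had a log2 signal from 6.03 to 7.04 on beta2 knockout MCAO arrays (median 6.63), against 6.02, 6.04 and 6.38 on the beta2 knockout sham arrays. Wild type MCAO arrays ranged from 6.26 to 6.67 (median 6.33), against 5.85, 6.02 and 5.99 on the wild type sham arrays. The groups overlapped in beta2 knockout mice only. The log2 difference was 0.39 in beta2 knockout (adjusted p = 0.0931) and 0.44 in wild type mice (adjusted p = 0.0866), and neither was called. With array weights both passed, at 0.40 in beta2 knockout (adjusted p = 0.0171, over all alternatives 0.0171 to 0.278) and 0.37 in wild type mice (adjusted p = 0.0344, over all alternatives 0.0195 to 0.272). It also passed in beta2 knockout mice without beta2 knockout MCAO array 2 (adjusted p = 0.0451) or 5 (adjusted p = 0.0319), and in wild type mice with only the arrays compared in the fit (adjusted p = 0.0195) and without beta2 knockout MCAO array 4 (adjusted p = 0.0469). The dim probe set 1439345_at stood at 0.06 and 0.13 in the same order.

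Aif1 encodes IBA1, a calcium-binding protein used to stain microglia and macrophages. Its log2 signal on beta2 knockout MCAO arrays ranged from 6.87 to 7.28 (median 6.98), against 6.85, 6.56 and 6.75 on the beta2 knockout sham arrays. On wild type MCAO arrays it ranged from 6.83 to 7.55 (median 7.41), against 7.54, 7.58 and 7.53 on the wild type sham arrays. The differences had opposite signs, with the MCAO arrays above sham in beta2 knockout mice and mostly below sham in wild type mice. Its log2 difference was 0.33 in beta2 knockout (SE 0.14, adjusted p = 0.0949) and -0.28 in wild type mice (SE 0.14, adjusted p = 0.201), and neither was called. With array weights both passed, at 0.34 in beta2 knockout (adjusted p = 0.0475, over all alternatives 0.0475 to 0.33) and -0.36 in wild type mice (adjusted p = 0.0496, over all alternatives 0.0496 to 0.36).

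**Figure D2:**
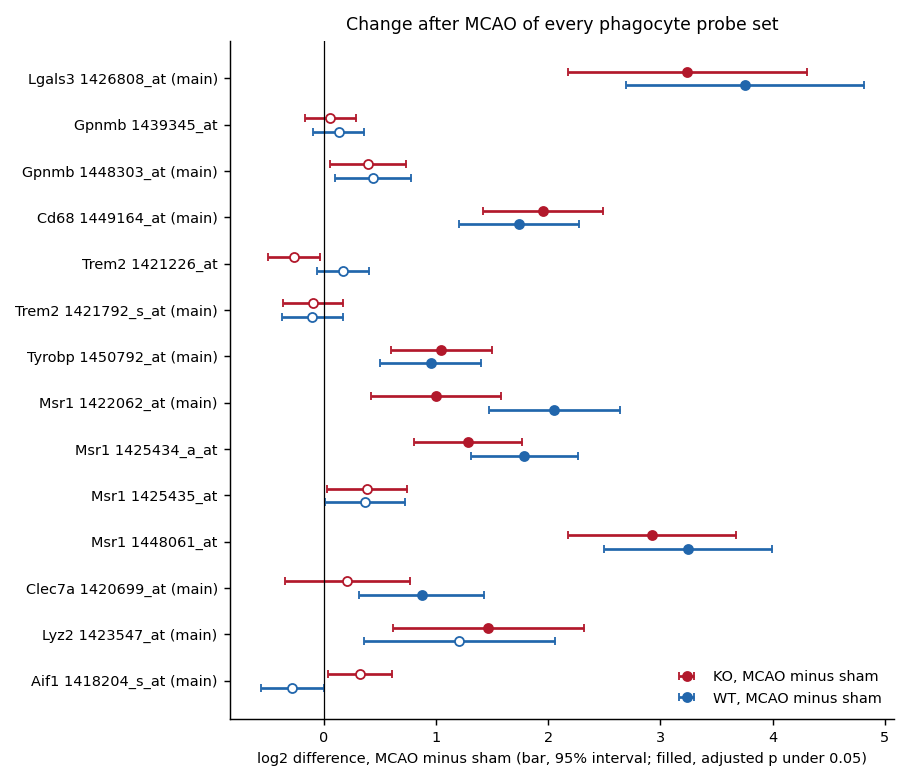
Log2 difference between MCAO and sham arrays (horizontal axis) of all 14 probe sets (vertical axis) in beta2 knockout (KO, red) and wild type (WT, blue) mice, with 95% intervals. Filled points had an adjusted p under 0.05. Lgals3 stands furthest right among the genes' main probe sets, at 3.24 in KO and 3.75 in WT. The main Trem2 probe set lies near 0, at -0.09 in KO and -0.10 in WT, and Trem2 1421226_at lies at -0.26 and 0.18.

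Across the members, MCAO and sham arrays did not overlap, with MCAO higher, for 7 of 14 probe sets in beta2 knockout mice, where this held for 11.2% of all probe sets. In wild type mice it held for 9 of 14, where it held for 7.97% of all probe sets. Among the MCAO arrays of beta2 knockout mice several members were high or low on the same arrays. Arrays 2, 5 and 7 had the 3 lowest signals for Lgals3, Cd68, Tyrobp and the main Msr1 probe set, and arrays 3 and 4 had the 2 highest for Cd68, Tyrobp, Msr1, Lyz2, Lgals3 and Clec7a. The mean log2 signal over the 9 main probe sets ranged from 7.18 on array 5 to 8.45 on array 4, an SD of 0.52, whereas wild type MCAO arrays had a range of 7.43 to 8.06 and an SD of 0.23. In wild type mice array 4 was the lowest on the main probe sets of Lgals3, Cd68, Tyrobp, Msr1, Trem2, Clec7a and Lyz2. The same beta2 knockout arrays 3 and 4 also had the 2 highest means for pan-myeloid genes (8.87 and 9.09), lysosomal genes (10.11 and 10.28), monocyte and macrophage genes (7.10 and 7.38) and reactive astrocyte genes (10.51 and 10.74), and the part of these in the members' spread was not tested. Wild type MCAO array 4 had the highest mean of the neutrophil genes in its group (6.94) and an actin ratio of 1.70, the highest of its group. No correlation between Lgals3 and the other members is given, because Lgals3 was unevenly spread within each MCAO group. Wild type MCAO arrays lay at 8.71 to 8.91 or at 9.68 to 9.77. Beta2 knockout MCAO arrays lay at 7.00, 7.29 and 8.44 or at 9.60 to 10.09.

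**Figure D3:**
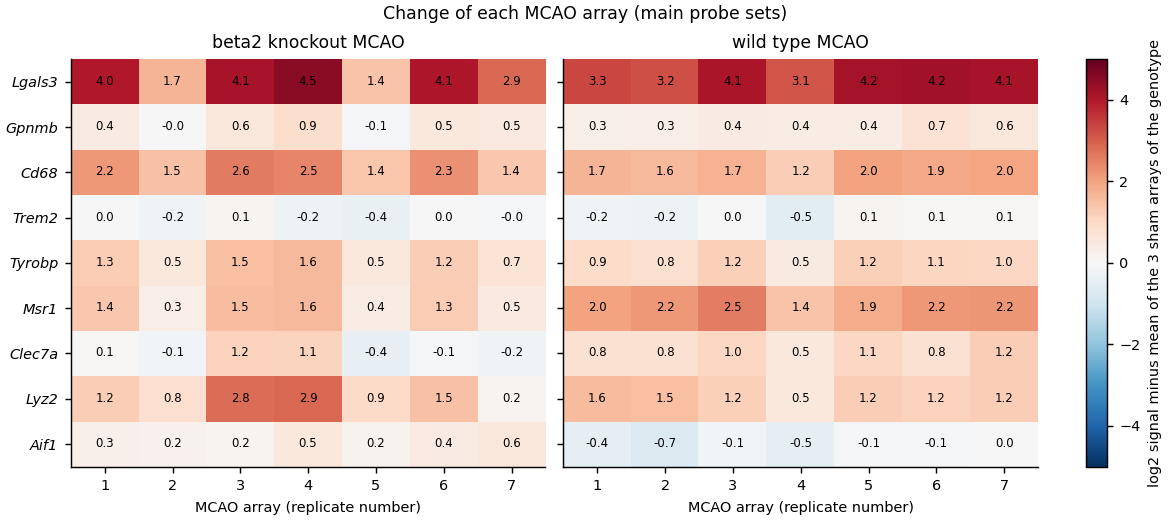
Log2 signal of each MCAO array (horizontal axis, replicate number) minus the mean of the 3 sham arrays of its genotype, for the main probe set of each gene (vertical axis; red higher, blue lower). Beta2 knockout arrays 2, 5 and 7 were the lowest for Lgals3 and Cd68 and arrays 3 and 4 stood highest for Clec7a and Lyz2, while wild type array 4 was lowest for Lgals3, Msr1 and Lyz2.

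Genes of the same pathways beyond the members were counted from lists, by the main probe set of each gene. Beside all the lists below, 14.9% of all genes were called higher and 7.59% lower in beta2 knockout mice. In wild type mice these shares were 7.41% and 6.26%. Among 21 further phagocytic receptors and ITAM signalling genes, 8 rose and 0 fell after MCAO in beta2 knockout mice, and 8 rose and 0 fell in wild type mice. The Fc receptor subunits were among them: Fcer1g, the other ITAM adaptor of phagocytes, rose by 1.30 in beta2 knockout and 1.32 in wild type mice, Fcgr1 by 1.78 and 1.28, and Fcgr3 by 1.27 and 0.995, in the same order. Itgb2, the beta chain of the leukocyte integrins, rose by 1.62 and 1.49. The receptors Mertk and Axl, which clear dying cells, were not called, at 0.29 and 0.39 in beta2 knockout and -0.08 and 0.33 in wild type mice. Over the alternatives that keep all probe sets, 7 to 10 rose in beta2 knockout and 6 to 14 in wild type mice. The median log2 difference of the list was 0.38 in beta2 knockout and 0.53 in wild type mice, beside 0.00 and 0.05 for all genes in the same order.

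Of 21 lysosomal genes, 13 rose and 0 fell in beta2 knockout mice and 7 rose and 0 fell in wild type mice. Over the alternatives that keep all probe sets, 9 to 15 rose in beta2 knockout and 2 to 13 in wild type mice. The lowest wild type count came without wild type sham array 3. The protease gene Ctsc rose by 2.57 in beta2 knockout (adjusted p = 4.41e-06) and 1.84 in wild type mice (adjusted p = 0.000229), and Ctsz by 1.51 and 0.96. Gusb, a lysosomal glucuronidase, rose by 1.41 in beta2 knockout and 0.72 in wild type mice, and Lamp2 by 1.42 and 0.69. The genotypes' changes were not called different for any of these 4 genes (adjusted p = 0.107 to 0.255). Only Atp6v0d2, a subunit of a proton pump, was called in that test among the 21. Its difference was -0.53 (adjusted p = 0.0481), between a change of -0.30 in beta2 knockout and 0.23 in wild type mice. That call was lost without beta2 knockout sham array 3 (adjusted p = 0.155) and with the actin ratio as a covariate (adjusted p = 0.157). Over the alternatives run on probe sets its adjusted p was 0.0131 to 0.241. Of 11 lipid handling genes, 4 rose and 2 fell in beta2 knockout mice and 3 rose and 2 fell in wild type mice. Ch25h, which makes 25-hydroxycholesterol, rose by 3.04 in beta2 knockout and 3.11 in wild type mice, and the lipid droplet gene Plin2 by 1.91 and 2.19. Apoe fell by 0.51 in beta2 knockout mice (adjusted p = 0.0167) and stood at -0.39 in wild type mice (adjusted p = 0.0862). The apolipoprotein gene Apoc1 was the only one of the list whose change was called different between genotypes, by -0.68 (adjusted p = 0.0413). This call too was lost without that sham array (adjusted p = 0.142) and with the actin covariate (adjusted p = 0.135). Over those alternatives its adjusted p was 0.016 to 0.15.

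Of 12 genes of resting microglia, 7 fell and 2 rose in beta2 knockout mice, and 6 fell and 0 rose in wild type mice, where 7.59% of all genes in beta2 knockout and 6.26% in wild type mice were called lower. The 2 that rose were Fcrls, by 0.50, and the microglial transcription factor gene Sall1, by 0.67, and with the replicate block 0 rose. P2ry12, a nucleotide receptor that microglia lose on activation, fell by 1.62 in beta2 knockout and by 2.71 in wild type mice, and P2ry13 fell by 0.73 and by 1.38 in the same order. Gpr34 fell by 0.82 in beta2 knockout and by 2.39 in wild type mice, and its change differed between genotypes by 1.57 (adjusted p = 0.0196). The changes of P2ry13, by 0.65 (adjusted p = 0.0416), and of Slc2a5, by -0.75 (adjusted p = 0.037), were also called different. None of these 3 was called without beta2 knockout sham array 3, where Gpr34 had an adjusted p of 0.0819, P2ry13 of 0.107 and Slc2a5 of 0.133. With the actin ratio as a covariate none was called either, at an adjusted p of 0.0647, 0.14 and 0.126 in the same order. Over the alternatives run on probe sets the adjusted p was 0.00424 to 0.0819 for Gpr34, 0.0138 to 0.14 for P2ry13 and 0.0259 to 0.133 for Slc2a5. The mean of the list was 7.01 to 7.54 on beta2 knockout MCAO arrays against 7.62 to 7.72 on beta2 knockout sham arrays, and 6.70 to 7.13 on wild type MCAO arrays against 7.74 to 7.93 on wild type sham arrays. It did not overlap between MCAO and sham in either genotype.

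**Figure D4:**
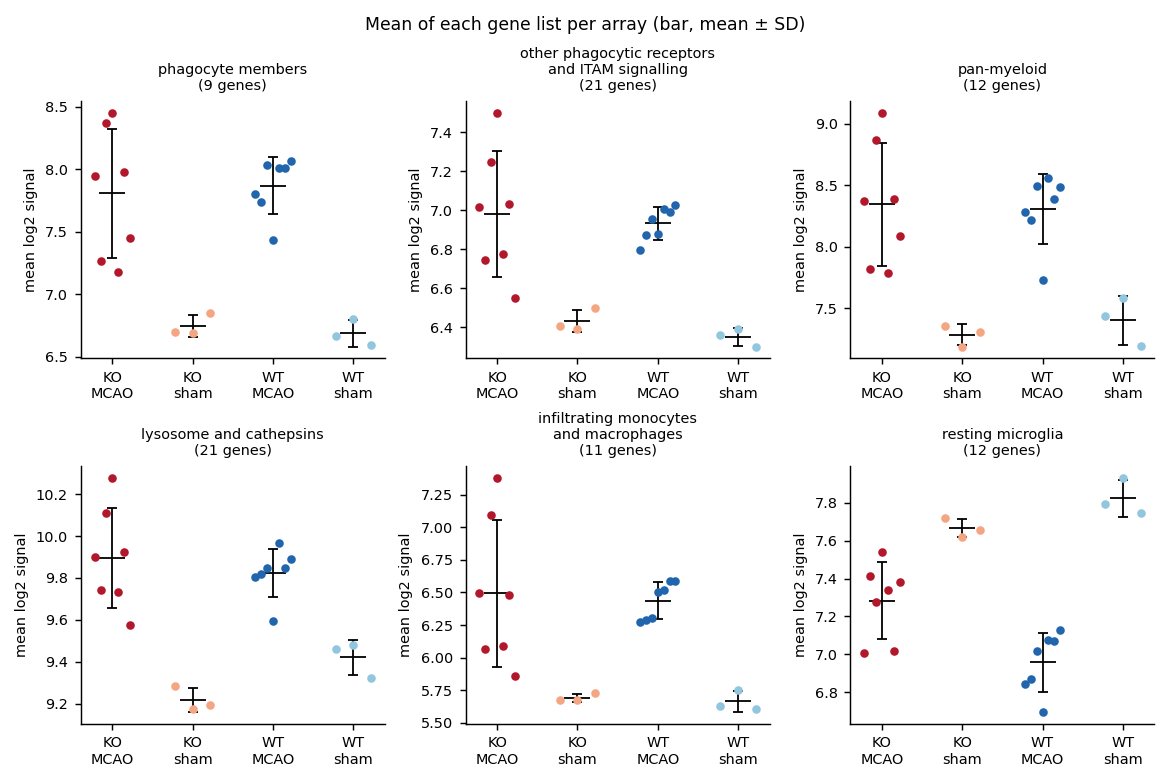
Mean log2 signal per array (vertical axis) of 6 gene lists by surgery group (horizontal axis; KO, beta2 knockout; WT, wild type); points are arrays, bars the mean ± SD (n = 7, 3, 7 and 3). The phagocyte members ranged from 7.18 to 8.45 on KO MCAO arrays and 6.69 to 6.85 on KO sham arrays, and resting microglia genes were lower on every MCAO array than on any sham array of the genotype.

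Markers of other cells that could carry these transcripts moved as well. Of 12 pan-myeloid genes, 10 rose and 0 fell in beta2 knockout mice, and 9 rose and 1 fell in wild type mice. With the actin ratio as a covariate 4 rose in beta2 knockout mice, and without wild type sham array 3, 5 rose in wild type mice. Of 11 genes of infiltrating monocytes and macrophages, 6 rose and 0 fell in beta2 knockout mice and 3 rose and 0 fell in wild type mice, with S100a4 at 1.44 and 1.58, but the receptor gene Ccr2 was not called, at -0.15 and 0.08. With only the arrays compared in the fit 3 rose in beta2 knockout mice, and without wild type sham array 1, 1 rose in wild type mice. The mean of that list was 5.86 to 7.38 on beta2 knockout MCAO arrays against 5.67 to 5.73 on sham arrays, and 6.27 to 6.59 on wild type MCAO arrays against 5.60 to 5.75 on sham arrays. Of 11 neutrophil genes, S100a8 and S100a9 rose in both genotypes. Their changes were 2.10 and 1.77 in beta2 knockout and 3.76 and 3.61 in wild type mice. In beta2 knockout mice 2 others fell, and with only the arrays compared in the fit 0 rose. The median log2 difference of this list was -0.25 in beta2 knockout and 0.35 in wild type mice. Changes called different between genotypes were those of Camp (-0.56, adjusted p = 0.0421) and Mpo (-0.93, adjusted p = 0.046). Neither was called without beta2 knockout sham array 3 (adjusted p = 0.155 and 0.15) or with the actin covariate (adjusted p = 0.116 and 0.147). All 10 reactive astrocyte genes rose in both genotypes. The part of each of these cell types in the members' changes was not tested.

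The next comparison asked whether loss of the receptor altered the members' response. No probe set was called different in its change between the genotypes: limma called 0 of 14, with 3 at an unadjusted p under 0.05, where 7.41% of all probe sets were called and 28.9% had such a p. Those 3 were Aif1, the main Msr1 probe set and Trem2 probe set 1421226_at. The change of Aif1 was 0.33 in beta2 knockout and -0.28 in wild type mice, a difference of 0.60 (SE 0.19, adjusted p = 0.0568). The change of Msr1 1422062_at was 0.999 in beta2 knockout and 2.06 in wild type mice, a difference of -1.06 (SE 0.39, adjusted p = 0.0903). For the other Msr1 probe sets the difference was -0.50 (1425434_a_at), -0.32 (1448061_at) and 0.02 (1425435_at). The change of Trem2 1421226_at was -0.26 in beta2 knockout and 0.18 in wild type mice, a difference of -0.44 (SE 0.16, adjusted p = 0.0809). For Lgals3 the difference was -0.51 (95% interval -2.02 to 0.99), an interval too wide to show that the genotypes responded alike. The Aif1 difference passed the threshold with 1 probe set per gene (adjusted p = 0.0499), with median centring (0.69, adjusted p = 0.0394) and with array weights (0.70, adjusted p = 0.0149), and over all alternatives its adjusted p was 0.0149 to 0.145.

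Directly after MCAO the beta2 knockout and wild type hemispheres were not called different for any member. Of 14 probe sets limma called 0, with 1 at an unadjusted p under 0.05 (Aif1), where 0.131% of all probe sets were called and 16.7% had such a p. Lgals3 averaged 8.83 ± 1.26 on beta2 knockout and 9.34 ± 0.49 on wild type MCAO arrays (SD, n = 7 each), a log2 difference of -0.51 (95% interval -1.33 to 0.31). Cd68 averaged 8.65 ± 0.54 and 8.56 ± 0.26, a difference of 0.09 (95% interval -0.32 to 0.51). Tyrobp averaged 9.59 ± 0.47 and 9.68 ± 0.25, a difference of -0.09 (95% interval -0.44 to 0.26). Aif1 averaged 7.05 ± 0.17 and 7.27 ± 0.26, a difference of -0.22 (adjusted p = 0.291). Every member overlapped between the 2 groups, and none of the further phagocytic, lysosomal, lipid or myeloid genes was called either.

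After sham surgery 1 of 14 probe sets, Aif1, was called lower in beta2 knockout mice and 0 were called higher, where 2.1% of all probe sets were called lower, 2.58% higher and 4.67% in either direction. Its values were 6.85, 6.56 and 6.75 on beta2 knockout sham arrays, against 7.54, 7.58 and 7.53 on wild type sham arrays. All beta2 knockout values lay below all wild type values, as held for 19.1% of all probe sets. The log2 difference was -0.83 (SE 0.16, adjusted p = 0.0166). The main Msr1 probe set was at 0.90 (adjusted p = 0.104), Clec7a at 0.59 (adjusted p = 0.261) and Trem2 1421226_at at 0.40 (adjusted p = 0.0771), each with beta2 knockout arrays above wild type arrays and not called. Among 4 probe sets with no overlap in this direction, where 20.1% of all probe sets had none, was also Gpnmb 1448303_at at 0.19. The other Msr1 probe sets overlapped between the sham groups, at 0.18 (1425434_a_at), 0.05 (1425435_at) and 0.04 (1448061_at). With array weights the main Msr1 probe set (adjusted p = 0.0138) and Trem2 1421226_at (adjusted p = 0.00276) passed the threshold. With only the arrays compared in the fit the main Msr1 probe set (adjusted p = 0.0295) and Clec7a (adjusted p = 0.0232) passed. The shares of all probe sets called under these 2 alternatives are given below. The actin ratio differed between these groups as given above, and the Aif1 call was lost with it as a covariate (-0.80, adjusted p = 0.0987), without beta2 knockout sham array 2 (adjusted p = 0.0756) or 3 (adjusted p = 0.108), and without wild type sham array 2 (adjusted p = 0.0681), within a range of 0.000451 to 0.108 over all alternatives. Only 3 arrays per group stood behind these values.

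The naive hemispheres gave the level of the members without surgery. The deposited values differed in form by genotype. Any 2 beta2 knockout naive arrays shared 1743 to 2876 exactly equal values, and 2 wild type naive arrays 1 to 48. No array pair of different genotype shared any. The lowest value per array was 3.19 to 3.28 on beta2 knockout and 3.49 to 3.73 on wild type naive arrays. Whether the genotypes were processed apart is not known, so genotype and array processing cannot be told apart. In addition, wild type naive array 6 correlated with the other naive arrays by 0.805 to 0.830, where the others correlated by 0.978 to 0.999, and its actin ratio was 4.88. With all arrays 1 of 14 probe sets was called lower in beta2 knockout mice, Msr1 1425435_at at -0.44 (SE 0.10, adjusted p = 0.00564), and 0 higher, where 12.1% of all probe sets were called lower, 8.02% higher and 20.1% in either direction. Its values ran from 3.88 to 4.30 on beta2 knockout arrays and from 4.23 to 4.93 on wild type arrays. With repeated quantile normalization it stood at -0.18 (adjusted p = 0.25), within a range of 0.000378 to 0.25 over all alternatives. Without wild type naive array 6, 5 of 14 were called, where 39.8% of all probe sets were called, so the members' share was near that of all probe sets: besides Msr1 1425435_at, Clec7a at 0.50, Msr1 1422062_at at 0.50, Lgals3 at 0.35 and Gpnmb 1448303_at at 0.34 were higher in beta2 knockout mice. With all arrays Aif1 stood at -0.16 and was not called (adjusted p = 0.122). It was called lower in beta2 knockout mice with median centring (-0.30, adjusted p = 0.00284), repeated quantile normalization (-0.32, adjusted p = 0.0155) and array weights (-0.18, adjusted p = 0.015). Median centring also lowered the median difference of all probe sets, as given below. Tyrobp averaged 9.08 ± 0.11 on beta2 knockout (n = 7) and 9.19 ± 0.36 on wild type naive arrays (SD, n = 8), and Cd68 averaged 7.53 ± 0.12 and 7.21 ± 0.53 in the same order.

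**Figure D5:**
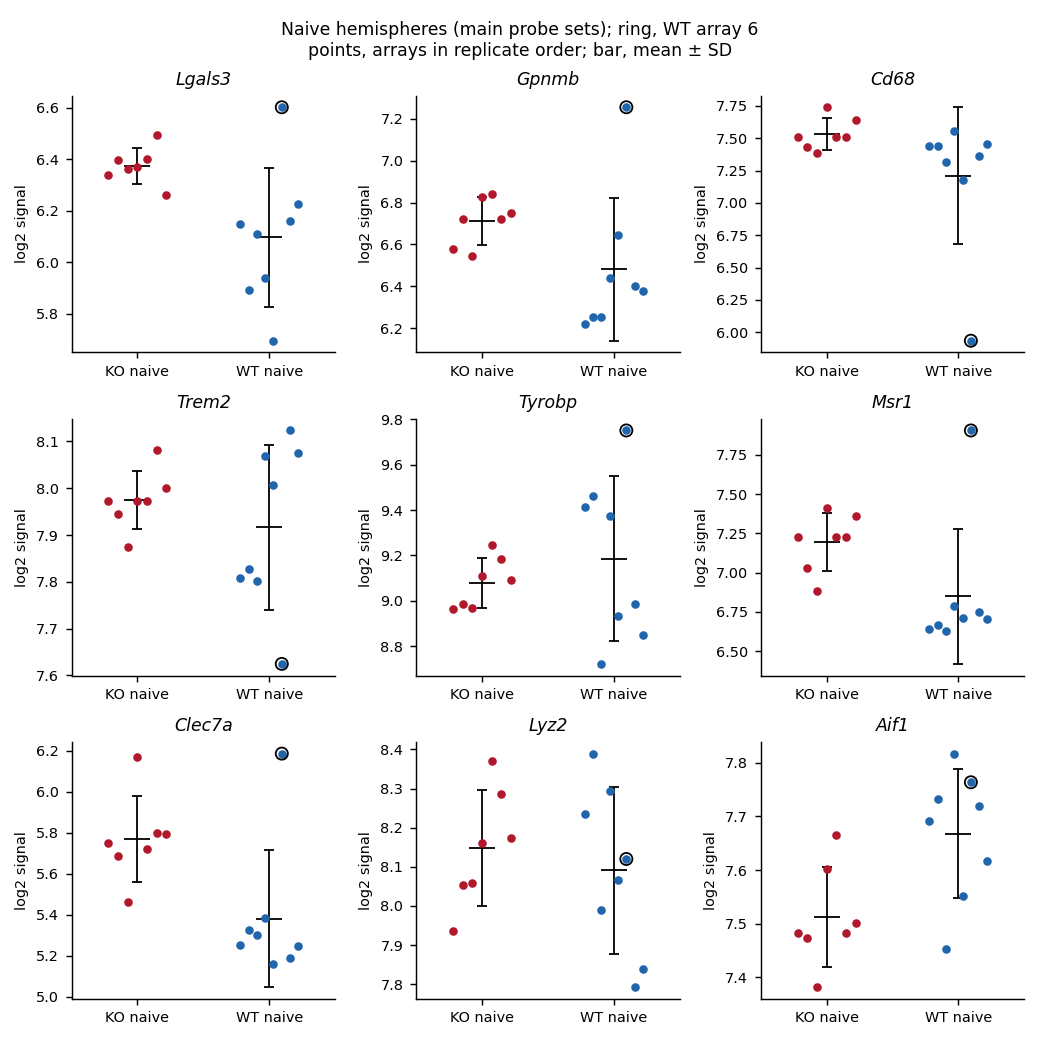
Log2 signal of the main probe set of each gene (vertical axis) on naive arrays of beta2 knockout (KO, n = 7) and wild type (WT, n = 8) mice (horizontal axis); points are arrays, bars the mean ± SD, and the ring marks WT array 6. That array was highest for Gpnmb, Msr1 and Clec7a, at 7.25, 7.90 and 6.18, and lowest for Cd68, at 5.93.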

How the data were processed

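Affymetrix mouse genome 430 2.0 arrays measured the RNA of each hemisphere. Per the submitters' processing notes RMA was used (version not given), and the authors deposited its log2 values. Per the labels, naive arrays had a normalization of their own. The 45101 probe sets included 64 controls, which were left out of tests. Of the rest, 34945 had 1 gene symbol, 932 several and 9160 none listed here; 34741 were updated by Entrez ID. Linear models with empirical Bayes moderation (limma version 3.58.1 under R 4.3.3) covered all 45037 probe sets, once to the 20 surgery arrays (4 groups with 1 shared spread per probe set) and once to the 15 naive arrays, with Benjamini-Hochberg adjustment over all probe sets and a threshold of 0.05. The number of arrays limits the precision. The method was tested on simulated data.

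All member probe sets are named; of each other list, the genes with the smallest p and those called between genotypes were eligible. Members, lists and tests were chosen with earlier results of these data known. Alternatives covered the scaling, probe set choice, dim filter, array weights, actin covariate, threshold, replicate block and each array left out. Same-numbered arrays had correlations of -0.21 to 0.47. In no pair of groups did every one pass 0.1 (4 of 7 did between naive groups), so numbers were not used as pairs. Values of the inactivated receptor gene are left out.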

Additional observations from a re-analysis of the deposited data

Results flagged for a closer look

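In 7 cases an array stood apart from the others of its group (Dixon's test), among 56 groups of values tested; chance alone flags about 1 group in 20. Of these, 5 fell on wild type naive array 6, which also stood apart over all probe sets. On it Gpnmb 1448303_at was highest at 7.25 (nearest array 6.64), Msr1 1422062_at highest at 7.90 (nearest 6.79), Msr1 1448061_at highest at 6.88 (nearest 5.80) and Clec7a highest at 6.18 (nearest 5.39), whereas Cd68 was lowest at 5.93 (nearest 7.18). The other 2 fell on wild type MCAO array 4, where Msr1 1448061_at was lowest at 6.74 (nearest 8.16) and Lyz2 lowest at 7.58 (nearest 8.20). Without that array 8 of 14 probe sets were called after MCAO in wild type mice in place of 7, Lyz2 among them (1.32, adjusted p = 0.0475). The causes were not tested.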

How the results depend on the processing

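No member's called difference turned its sign under any alternative, and Lgals3 and Cd68 stayed called in both genotypes under each. The count of called probe sets, 7 in wild type mice after MCAO, was 11 with array weights, where 18.9% of all probe sets were called, and 5 to 9 with 1 array left out. In beta2 knockout mice, 7, it was 10 with array weights, where 30.2% of all probe sets were called, and 5 to 8 with 1 array left out. For the change between genotypes, 0, it was 1 with 1 probe set per gene, 1 with the mean of a gene's probe sets, 1 with median centring (Aif1 in each), 3 with array weights and 0 to 2 with 1 array left out (2 without wild type MCAO array 5). Between MCAO groups it was 0 under every alternative. Between sham groups, 1, it was 3 with array weights (27.7% of all probe sets), 3 with only the arrays compared (13.4%), 0 with the actin covariate, 0 at an adjusted p under 0.01, and 0 to 1 with 1 array left out. Between naive groups, 1, it was 0 with 1 probe set per gene, 0 with the mean of a gene's probe sets, 0 without dim probe sets, 2 with median centring, 2 with repeated quantile normalization, 6 with array weights (44.1% of all probe sets), 5 with the actin covariate (38.7%), and 1 to 5 with 1 array left out (5 without wild type array 6, 39.8%). With the replicate block 6 were called in wild type mice, Clec7a being lost (0.93, adjusted p = 0.0652), and no other count of members changed. The causes were not tested.

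Counts over all 45037 probe sets moved more, over the alternatives that keep them all and the threshold. They went to between 2438 (without wild type sham array 1) and 8506 (array weights) from 4816 in wild type mice after MCAO, and to between 3715 (without beta2 knockout sham array 3) and 13589 (array weights) from 8429 in beta2 knockout mice. For the change between genotypes, 3336, they were 0 (without beta2 knockout sham array 3) to 6638 (array weights), with 57 under the actin covariate. Between MCAO groups, 59, they were 18 (only the arrays compared) to 1656 (actin covariate), between sham groups, 2105, 3 (actin covariate) to 12476 (array weights), and between naive groups, 9046, 5046 (repeated quantile normalization) to 19879 (array weights). At an adjusted p under 0.01 they were 1961, 3602, 0, 16, 18 and 4842 in that order. Median centring shifted the median naive difference from 0.03 to -0.12 and the share of calls that were higher from 39.9% to 10.9% between naive groups, from 41.8% to 66.1% for the change between genotypes, from 55.9% to 68.4% between MCAO groups, from 55.2% to 44.6% between sham groups and from 57.6% to 68.4% in beta2 knockout mice; repeated quantile normalization gave 66.5% between sham groups. Without dim probe sets (22519 tested) that share was 94.8% between naive groups, 74.8% for the change between genotypes, 23.4% between sham groups and 76.7% in beta2 knockout mice, and without wild type naive array 6 it was 59.5% between naive groups. In all, 9 of 14 member probe sets passed that filter on the surgery arrays and 6 on the naive arrays.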
